A study of Mus musculus with 6 samples.

Results

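The Fc receptor genes Fcgr1, Fcgr2b, Fcgr3, Fcgr4, Fcer1g, Fcgrt and Fcrls were examined in TruSeq mRNA libraries of mouse frontal cortex. Members were the rows of the count table with exactly these symbols, 7 of 33000 genes, and all 7 passed the filter on low counts that left 15341 genes for testing. The libraries came from 3 GFAP-IL6 mice, labelled homozygous, and 3 wild-type (WT) mice, all 3 months old and all given C57BL/6 as strain. In the GFAP-IL6 mouse the promoter of Gfap drives IL6, an inflammatory cytokine, in astrocytes, so the transgene acts in a cell type that is not the usual source of Fc receptors. The comparison of GFAP-IL6 with WT asks how the Fc receptors stand in cortex under chronic IL6, and the inhibitory receptor Fcgr2b was also set against the activating members.

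Fc receptors bind the constant part of antibodies and pass the signal on into the cell. Among the receptors for IgG, the products of Fcgr1, Fcgr3 and Fcgr4 are activating: their ligand-binding alpha chains signal through the common gamma chain, the product of Fcer1g, whose cytoplasmic tail carries an immunoreceptor tyrosine-based activation motif (ITAM). The product of Fcgr2b is the inhibitory IgG receptor and carries an inhibition motif (ITIM) in its own tail, which recruits phosphatases. Fcgrt encodes the neonatal Fc receptor, which rescues IgG and albumin from degradation and is known from endothelial cells. Fcrls encodes an Fc receptor-like scavenger receptor known as a marker of microglia, the resident macrophages of the brain and the cells of this tissue best known for IgG receptors.

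The coding bases of the motifs that set the inhibitory receptor apart from the activating chain are shown first, read from GENCODE M21 transcripts on GRCm38, 5′ to 3′ along the minus strand, with the motif codons in capitals. The ITIM of Fcgr2b covers residues 317 to 322 of 340, past the hydrophobic segment at residues 223 to 241, and its codons lie in 1 exon. The printed stretch spans chr1:170961056-170961198, where only its first 3 bases come from the exon before. The ITAM of Fcer1g covers residues 65 to 79 of 86, in 2 exons within chr1:171229874-171230087.

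Fcgr2b ITIM: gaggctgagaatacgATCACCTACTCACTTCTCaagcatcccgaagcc

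Fcer1g ITAM: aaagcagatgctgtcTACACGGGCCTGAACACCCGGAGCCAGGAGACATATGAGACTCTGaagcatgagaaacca

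No ITAM pattern was found in the proteins of Fcgr1, Fcgr2b, Fcgr3 or Fcgr4, and among the 7 members the ITIM pattern lay past the hydrophobic segment in Fcgr2b only. These patterns are short: 6.5% of 21551 mouse proteins hold the ITAM pattern somewhere and 41.3% the ITIM pattern, so a match alone is a description.

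Fcgr2b and Fcgr3 are close relatives. Aligned over their whole length, tails included, their proteins shared 65.8% of 263 aligned residues. For Fcgr3 and Fcgr4 it was 46.4% of 248 aligned residues. In Fcgr2b and Fcgr3, 509 bases of the coding sequences aligned with 96.5% identity. The longest identical coding run of Fcgr2b and Fcgr3, of 129 bases, is shown because reads that fall inside it cannot be told apart. It lies in 2 exons of each gene on the minus strand of GRCm38, within chr1:170966674-170968081 in Fcgr2b and chr1:171054167-171057792 in Fcgr3.

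Fcgr2b and Fcgr3 shared run: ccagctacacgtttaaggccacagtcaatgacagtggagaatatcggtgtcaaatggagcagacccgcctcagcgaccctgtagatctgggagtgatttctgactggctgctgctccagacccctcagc

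Of the windows of 75 bases in the Fcgr2b transcript, 321 of 3470, or 9.25%, occurred in a transcript of another gene as well, 94 of them in Fcgr3 and 227 only in genes that are not members. In Fcgr3, 94 of 1273 windows, or 7.38%, occurred elsewhere, all in Fcgr2b. The other 5 members had 0 such windows. Since only uniquely aligned reads were counted, counts of Fcgr2b and Fcgr3 may leave out reads from these stretches. Of the exon bases of Fcgr2b, 155 of 5790 overlapped Gm38204 on the opposite strand, which held at most 1 count in any library. The exons of the other members overlapped no exon of another gene.

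Total counts ranged from 7559524 to 16877001 per library, and each GFAP-IL6 library was shallower than each WT library. Il6 had at most 2 counts in each WT library and between 10 and 24 in the GFAP-IL6 libraries, and Gfap was likewise higher in GFAP-IL6, as labelled. Levels are given as counts for each 1 M of the library (CPM, M for mega) and adjusted by the trimmed mean of M-values (TMM), and fold changes, standard errors (SE) and adjusted p-values come from edgeR's quasi-likelihood test with Benjamini-Hochberg adjustment over the 15341 genes. The SE was derived from the F statistic of that test. The 95% intervals of fold changes took the estimate as normal, which makes them somewhat too narrow with so few libraries. A floor of 3 counts corresponded to between 0.179 and 0.396 CPM across libraries.

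Of the 7 Fc receptor genes, 6 were higher in GFAP-IL6 at an adjusted p under 0.05, and 0 were lower, by edgeR's quasi-likelihood test. The share of all tested genes called was 2.65% for higher and 0.209% for lower. In 5 of the 7 the log2 fold change was also over 1, the threshold of the study, against 1.36% of all genes. The values of all 3 GFAP-IL6 libraries lay above those of all 3 WT libraries for 6 members, against 13.8% of all genes, and the member left out in each of these counts of 6 was Fcgrt. Fcgr4 passed the filter on low counts through its GFAP-IL6 libraries only, so its count among the called members is no support. The members' median log2 fold change was 1.38, and that of all tested genes was -0.00. In bulk tissue, a change in the number of cells of a type and a change in RNA per cell cannot be told apart.

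**Figure D1:**
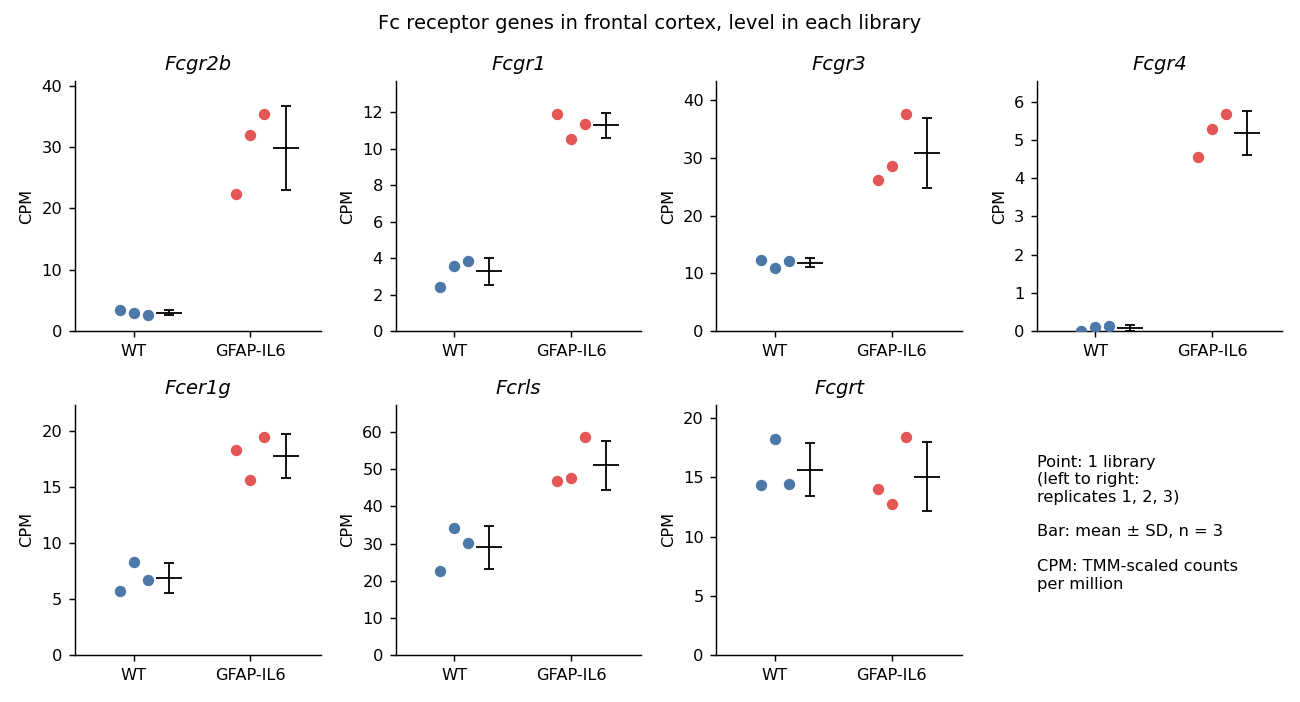
Level of each Fc receptor gene in TMM-scaled CPM (y axis, from 0, a scale per panel) in the 3 WT and 3 GFAP-IL6 libraries. Each point is a library, and the bar gives the mean ± SD (n = 3). The groups are apart in 6 panels and overlap for Fcgrt, where both groups lie between 12.8 and 18.4 CPM.

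The inhibitory receptor Fcgr2b (ENSMUSG00000026656.13, chr1:170958617-170976547, minus strand) had 39, 50 and 41 counts in WT replicates 1, 2 and 3, and 249, 242 and 318 counts in GFAP-IL6. Scaled for depth, this came to 3.39, 2.98 and 2.57 CPM in WT and 22.3, 31.9 and 35.5 CPM in GFAP-IL6. The lowest GFAP-IL6 library lay well clear of the highest WT library, and the spread within GFAP-IL6 was wider than that within WT. The mean rose from 2.98 ± 0.411 CPM to 29.9 ± 6.81 CPM (SD, n = 3). In edgeR this was a log2 fold change of 3.33 ± 0.19 (SE), adjusted p = 1.86e-06. On the linear scale the change was 10.04-fold, with a 95% interval from 7.72 to 13.1. By p-value Fcgr2b ranked at place 4 among all genes tested.

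Among the activating alpha chains, Fcgr1 encodes the high-affinity IgG receptor (ENSMUSG00000015947.8, chr3:96282909-96293969, minus strand). Its levels were 2.44, 3.57 and 3.83 CPM in WT and 11.9, 10.6 and 11.4 CPM in GFAP-IL6. The GFAP-IL6 libraries were close together and far above the WT libraries. The log2 fold change was 1.76 ± 0.18 (SE), or 3.39-fold, with an edgeR adjusted p of 0.000144.

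Fcgr3 encodes a low-affinity activating receptor (ENSMUSG00000059498.11, chr1:171051174-171064935, minus strand) and was the most abundant of Fcgr1, Fcgr2b, Fcgr3 and Fcgr4 in WT. It stood at 12.4, 11.02 and 12.2 CPM in WT and at 26.2, 28.6 and 37.7 CPM in GFAP-IL6. The WT libraries lay within a narrow band, and GFAP-IL6 replicate 3 was the highest. The log2 fold change was 1.38 ± 0.14 (SE), or 2.60-fold, with an edgeR adjusted p of 0.0001.

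Fcgr4 encodes an activating receptor of intermediate affinity (ENSMUSG00000059089.4, chr1:171018920-171029761, plus strand). It was at the floor in WT, with counts of 0, 2 and 2, against 51, 40 and 51 in GFAP-IL6. In CPM the GFAP-IL6 libraries held 4.57, 5.28 and 5.69, and no WT library exceeded 0.125. Fcgr4 was therefore nearly undetected in WT cortex at this depth and present in each GFAP-IL6 library. It was at least 24.7-fold higher in GFAP-IL6, computed against 3 counts per WT library, with an edgeR adjusted p of 7.44e-06.

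Fcer1g, the gene of the common gamma chain shown above with its ITAM (ENSMUSG00000058715.9, chr1:171229572-171234365, minus strand), measured 5.66, 8.28 and 6.65 CPM in WT and 18.3, 15.6 and 19.4 CPM in GFAP-IL6. The lowest value of GFAP-IL6 was well above the highest of WT. The log2 fold change was 1.36 ± 0.16 (SE), or 2.57-fold, with an edgeR adjusted p of 0.000286, so the signalling chain and Fcgr3 had log2 fold changes within 1 SE of each other.

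Fcrls (ENSMUSG00000015852.11, chr3:87250758-87263738, minus strand) showed a smaller change. Its levels were 22.6, 34.1 and 30.2 CPM in WT and 47.0, 47.6 and 58.6 CPM in GFAP-IL6. The groups did not overlap, and WT replicate 1 was the lowest library. The log2 fold change was 0.81 ± 0.14 (SE), or 1.75-fold, with an edgeR adjusted p of 0.00564. Without GFAP-IL6 replicate 3 the log2 fold change was 0.70 and the edgeR adjusted p 0.0615, so the call depended on that library.

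Fcgrt (ENSMUSG00000003420.7, chr7:45092990-45103851, minus strand), the neonatal Fc receptor, was the member without a detected difference. It had 14.4, 18.2 and 14.4 CPM in WT and 14.05, 12.8 and 18.4 CPM in GFAP-IL6. The highest and the lowest library were both of the GFAP-IL6 group, so the groups overlapped fully. The log2 fold change was -0.06 ± 0.15 (SE), with an edgeR adjusted p of 0.86, and the 95% interval of the fold change ran from 0.781 to 1.18. The sign turned to 0.069 without WT replicate 2 and to 0.038 without GFAP-IL6 replicate 2. B2m, which encodes the light chain that pairs with the product of Fcgrt, had a log2 fold change of 0.40 with an edgeR adjusted p of 0.0791.

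To compare levels between genes, counts were divided by gene length and scaled to the same sum of 1 M in each library (TPM). In WT the order was led by Fcrls at 35.3 ± 6.16 TPM, followed by Fcer1g at 25.4 ± 4.16, Fcgrt at 25.0 ± 2.85 and Fcgr3 at 24.5 ± 2.18 TPM (SD, n = 3). The ranges of each of these and its neighbour in the order overlapped. Far below them came Fcgr1 at 3.51 ± 0.735 TPM, Fcgr2b at 2.18 ± 0.339 TPM and Fcgr4 at 0.178 ± 0.155 TPM, with no overlap between these neighbours.

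In GFAP-IL6 the top of the order was shared by Fcer1g at 69.3 ± 7.94, Fcgr3 at 66.8 ± 12.8 and Fcrls at 65.6 ± 8.18 TPM, whose ranges overlapped. Fcgrt at 25.3 ± 4.89 TPM and Fcgr2b at 22.9 ± 5.04 TPM came next and also overlapped, although Fcgr2b had been well below Fcgrt in WT. Fcgr1 at 12.7 ± 0.884 TPM and Fcgr4 at 12.02 ± 1.22 TPM closed the order and could not be separated. Fcgr2b thus stood below Fcgr1 in each WT library and above it in each GFAP-IL6 library on this scale. In WT replicate 1 the margin was small, with 2.55 TPM for Fcgr2b and 2.69 for Fcgr1. By counts Fcgr2b was the higher there, 39 against 28, so that order depends on the gene lengths used.

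The composition of the IgG receptors was examined by summing the TPM of Fcgr1, Fcgr2b, Fcgr3 and Fcgr4 in each library. The sum was 31.5, 28.1 and 31.5 TPM in WT and 99.1, 109.8 and 134.3 TPM in GFAP-IL6. Fcgr2b made up 8.09%, 7.49% and 5.96% of it in WT and 17.4%, 22.1% and 20.1% in GFAP-IL6. The inhibitory receptor thus held a larger share in each GFAP-IL6 library than in any WT library.

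Averaged over libraries, the Fcgr2b share was 7.18 ± 1.10% in WT and 19.9 ± 2.35% in GFAP-IL6, and the Fcgr4 share was 0.597 ± 0.517% and 10.6 ± 0.679% (SD, n = 3). The share of Fcgr3 was 80.6 ± 2.52% in WT and 58.2 ± 2.25% in GFAP-IL6, still the largest of the 4 in each library. For each of these shares the groups did not overlap, and the two-sided exact permutation test gave p = 0.1, its minimum with 3 libraries in each group, so it could not reach 0.05. The share of Fcgr1 was 11.6 ± 2.65% in WT and 11.3 ± 2.15% in GFAP-IL6, and the groups overlapped (exact permutation p = 1). The summed TPM of the activating alpha chains over that of Fcgr2b was 13.2 ± 2.33 in WT and 4.08 ± 0.613 in GFAP-IL6. The ratio of Fcer1g to the activating alpha chains was 0.909 ± 0.210 in WT and 0.763 ± 0.102 in GFAP-IL6, with overlapping groups (exact permutation p = 0.5).

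**Figure D2:**
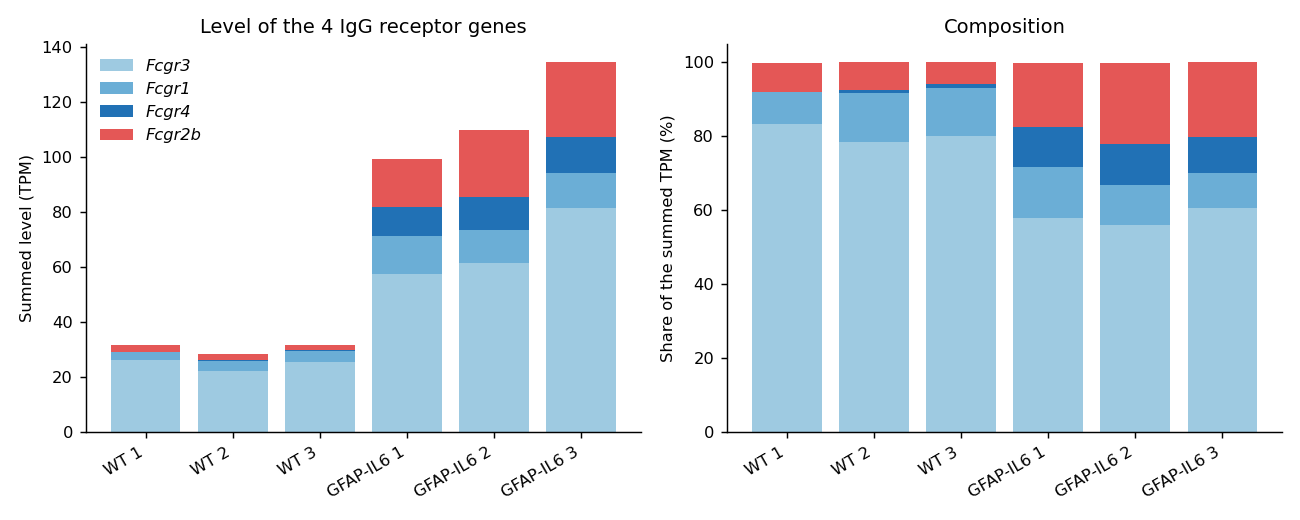
Summed level of the 4 IgG receptor genes in TPM (left, stacked bars from 0) and the share of each gene in that sum in percent (right), for the 3 WT and 3 GFAP-IL6 libraries. The summed level is between 28.1 and 31.5 TPM in WT and between 99.1 and 134.3 TPM in GFAP-IL6, and the Fcgr2b share lies between 5.96% and 8.09% in WT and between 17.4% and 22.1% in GFAP-IL6.

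Ratios of counts within a library do not depend on the scaling between libraries, so Fcgr2b was set against each activating member in this way. There was 1 count of Fcgr2b to several of Fcgr3 in WT, with ratios of 0.275, 0.270 and 0.210, and about as many of the one as of the other in GFAP-IL6, with ratios of 0.850, 1.11 and 0.941. As a share of the counts of both genes, Fcgr2b took 21.5%, 21.3% and 17.4% in WT and 45.9%, 52.7% and 48.5% in GFAP-IL6. The 95% Clopper-Pearson intervals, which cover counting error only, reached up to 28.3% in WT and down to 41.7% in GFAP-IL6. Counting error thus leaves a gap between the groups for this pair.

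The log2 ratio of Fcgr2b to Fcgr3 was higher by 1.93 ± 0.17 (SE) in GFAP-IL6, a 3.82-fold change of the ratio. For Fcer1g the count ratios were 0.6, 0.360 and 0.387 in WT and 1.22, 2.05 and 1.83 in GFAP-IL6, a difference of 1.91 ± 0.32 in log2. For Fcgr1 they were 1.39, 0.833 and 0.672 in WT and 1.87, 3.03 and 3.12 in GFAP-IL6, a difference of 1.49 ± 0.39 in log2. The groups did not overlap in these 3 pairs, and Fcgr2b rose by more than each of these partners in the same libraries. The two-sided exact permutation p was 0.1 for each, the minimum, and 0.1 after Benjamini-Hochberg adjustment over the 4 pairs compared. The share of all tested genes whose ratio to any of the 4 partners separates the groups was not computed, so these separations are no support.

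Fcgr4 went the other way. Fcgr2b had at least 13, 16.7 and 13.7 counts for each count of Fcgr4 in WT, computed against the floor of 3 counts, and 4.88, 6.05 and 6.24 in GFAP-IL6. The ratio was lower in all 3 GFAP-IL6 libraries (two-sided exact permutation test, p = 0.1), and its exact size in WT was not measurable at this depth.

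**Figure D3:**
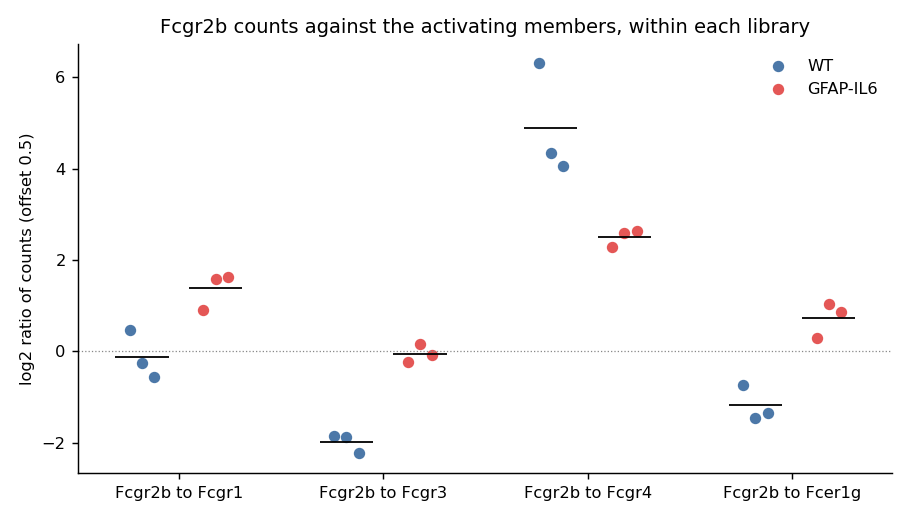
Log2 ratio of Fcgr2b counts to the counts of Fcgr1, Fcgr3, Fcgr4 and Fcer1g within each library (y axis, offset of 0.5 counts), with points for the 3 WT and 3 GFAP-IL6 libraries and lines at the group means. The GFAP-IL6 points lie above the WT points for Fcgr1, Fcgr3 and Fcer1g and below them for Fcgr4, where the WT points depend on the offset because Fcgr4 was at the floor.

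Part of the general microglia markers also moved with the group. Of 11 markers, all tested, 6 were higher by edgeR, against 2.65% of all tested genes, 0 were lower and 5 not called. The markers' median log2 fold change was 0.63. The list was mixed, as the log2 fold change was 1.27 for Olfml3 but -0.27 for P2ry12 and -0.22 for Gpr34. The summed level of all 11 was between 402.8 and 498.7 CPM in WT and between 676.9 and 772.7 CPM in GFAP-IL6. The mean log2 level of these markers was 4.62, 4.99 and 4.85 in WT and 5.31, 5.26 and 5.49 in GFAP-IL6, a difference of 0.53 ± 0.13 (SE, exact permutation p = 0.1). Each member was therefore also measured relative to this mean within each library, with a pseudocount of 0.5 CPM.

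Relative to the microglia markers, the log2 level of Fcgr2b was higher in GFAP-IL6 by 2.57 ± 0.25 (SE), that of Fcgr1 by 1.13 ± 0.12, and those of Fcgr3 and Fcer1g by 0.79 ± 0.18 and 0.79 ± 0.07. Fcrls differed by 0.29 ± 0.08 and so followed the markers most closely. Fcgr4 was higher by 2.76 ± 0.08, a value that depends on the pseudocount and was 4.41 with 0.1 CPM. Fcgrt was lower by 0.59 on this scale (SE 0.11) and by 0.54 (SE 0.17) relative to the mean of 8 endothelial markers. Its own log2 fold change was -0.06 with overlapping groups. The microglia marker mean rose by 0.53, and the endothelial markers had a median log2 fold change of 0.52. These lower ratios thus came mainly from the rise of the markers and do not show a fall of Fcgrt itself. The groups did not overlap for any of the 7 members, where the two-sided exact permutation p was 0.1 for each and 0.1 after adjustment over the 7. The marker mean itself did not overlap between the groups, so a gene without a change of its own would be set lower on this scale. The share of all tested genes that separate on this scale was not computed, so this count is no support.

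Markers of blood-borne and other Fc receptor-bearing cells were scarce. The summed level of 6 markers of monocytes and neutrophils was between 0.174 and 1.13 CPM in WT and between 1.055 and 1.895 CPM in GFAP-IL6, and most of it was Ccr2. Ly6c2 was at 0 in all WT libraries, and neither it nor Ly6g exceeded 1 count in any library. For 5 B cell markers the sums were between 0.502 and 0.536 CPM in WT and between 0.527 and 1.23 CPM in GFAP-IL6, with Ms4a1 at 0 in WT. For 5 markers of T and NK cells they reached 0.0596 CPM in WT and lay between 0.396 and 0.557 CPM in GFAP-IL6, with Cd3d at 0 in all 6 libraries. Sums for 4 mast cell markers did not exceed 0.223 CPM. None of the markers in these 4 lists passed the filter, so they were not tested, and their part in the Fc receptor levels was not tested.

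Of the border macrophage markers 4 of 6 were tested and 0 called, with a median log2 fold change of 0.22 and summed levels between 7.71 and 13.5 CPM in WT and between 9.58 and 16.3 CPM in GFAP-IL6. Among 8 endothelial markers, 4 were higher by edgeR, against 2.65% of all tested genes, and 0 were lower. Their median was 0.52, and their sums were between 174.4 and 195.6 CPM in WT and between 264.1 and 300.6 CPM in GFAP-IL6. Of the markers of astrocytes, neurons and oligodendrocytes, 0 of 14 were called. The choroid plexus markers had a median of -2.15 with 0 of 3 tested called, and WT replicate 3 held the most counts of each, 8766 for Ttr.

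Most genes of the ligands and of the other receptors of the family had too few counts to be tested. Of 10 immunoglobulin chain genes, 6 had at most 3 counts in each library, 2 were tested and 0 called. Ighm, the heavy chain of IgM, had a log2 fold change of 0.16 with an edgeR adjusted p of 0.392, and Ighg2c, a heavy chain of IgG, had 0.12 with 0.834. Neither group stood apart from the other, and the light chain gene Igkc had 12 counts in GFAP-IL6 replicate 1 and at most 3 elsewhere. Of 13 further Fc receptors and relatives 2 were tested and 0 called. Of all tested genes 2.65% were called higher and 0.209% lower, so the lack of calls among so few genes does not set these lists apart. The lower adjusted p was that of Trim21, an intracellular Fc receptor, at 0.258 by edgeR with a log2 fold change of 0.50. Fcamr and Fcrl5 were at 0 counts in all libraries, as was Gp6 among the receptors that couple to the gamma chain.

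Downstream of the activating receptors, 7 of 16 tested signalling genes were higher by edgeR, 0 were lower and 9 were not called. The median log2 fold change was 0.83. Of all tested genes 2.65% were called higher, and of the microglia markers 6 of 11. Plcg2, the phospholipase activated below the kinases, rose by 1.66 ± 0.15 (SE) in log2 with an edgeR adjusted p of 5.07e-05. Pik3cd, a catalytic subunit of phosphoinositide 3-kinase, rose by 0.74 ± 0.09 with an edgeR adjusted p of 0.00068. The adaptor Lcp2 rose by 1.49 ± 0.20 and the exchange factor Vav1 by 1.32 ± 0.18. Syk, the kinase that binds phosphorylated ITAMs and which was chosen after its values were seen, had a log2 fold change of 0.42 with an edgeR adjusted p of 0.246 and overlapping groups. Of 3 tested ITAM adaptors and gamma-coupled receptors 1 was higher, the adaptor Tyrobp, at 0.79 ± 0.14 with an edgeR adjusted p of 0.00813.

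On the inhibitory side, the median log2 fold change was 0.33, and 0 of 10 tested phosphatases and adaptors were lower. By edgeR 3 were higher, against 2.65% of all tested genes. They were the adaptor Dok3 at 1.11 ± 0.18, the tyrosine phosphatase gene Ptpn6 at 1.02 ± 0.18 and the inositol phosphatase gene Inpp5d, whose product binds the ITIM of the inhibitory Fc receptor, at 0.67 ± 0.14 (log2 fold change, SE). Their edgeR adjusted p-values were 0.00466, 0.00683 and 0.0195. Ptpn11, a related phosphatase outside the naming rule, had a log2 fold change of -0.02.

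Other receptors with an ITIM were also higher in part. Of 11 listed, 10 were matched by symbol and 9 tested. Of these 9, 0 were lower and 6 higher by edgeR, against 2.65% of all tested genes called higher. Cd300lf, Cd22 and Pirb had so few counts in WT that they passed the filter through their GFAP-IL6 libraries, which raises this count. Siglece, called but outside the naming rule, had 13, 10 and 18 counts in WT and also needed its GFAP-IL6 libraries to pass. Cd300lf, a receptor of myeloid cells, had counts of 0, 1 and 1 in the WT libraries and of 19, 12 and 19 in those of GFAP-IL6, with an edgeR adjusted p of 0.000175. Cd22, a sialic acid-binding lectin, was counted 0, 1 and 4 times in WT and 14, 18 and 19 times in GFAP-IL6, with an edgeR adjusted p of 0.00198. For Pirb the counts were 4, 8 and 0 in WT against 29, 16 and 26 in GFAP-IL6, with an edgeR adjusted p of 0.00405. These 3 genes had few counts in WT, as Fcgr4 did. Cd33, another sialic acid-binding lectin, was readily detected in both groups and rose by 1.06 ± 0.16 (SE) in log2 with an edgeR adjusted p of 0.00217.

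**Figure D4:**
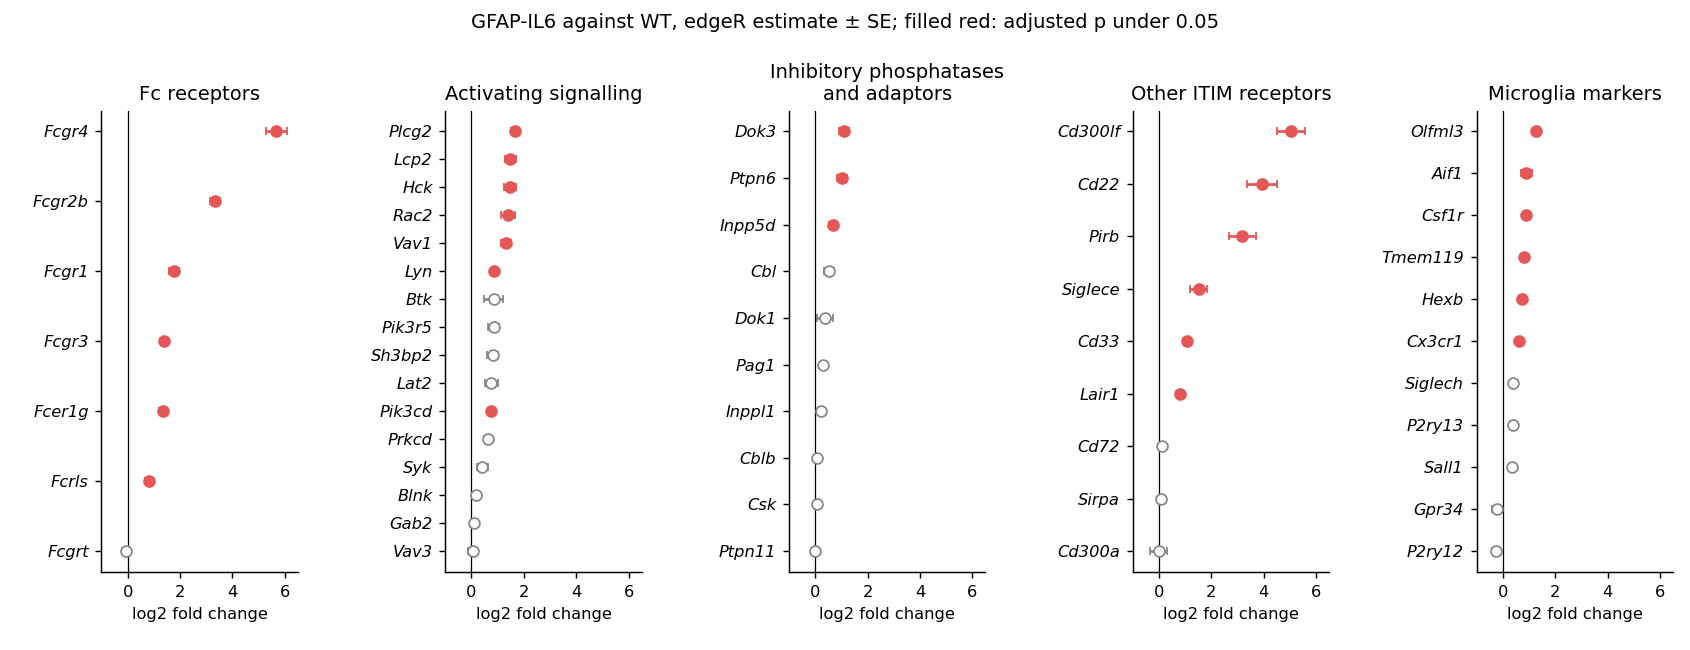
Log2 fold change of GFAP-IL6 over WT with its SE (x axis, edgeR) for the Fc receptor genes, the activating and inhibitory signalling genes, the other ITIM receptors and the microglia markers (rows), with filled points for genes at an adjusted p under 0.05. In the signalling panels 7 of 16 and 3 of 10 points are filled, all to the right of 0, and the positions of Fcgr4 and Cd300lf depend on the prior count of the fit because both were at the floor in WT.

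Fcgr2b, Fcgr4, Fcgr3 and Fcer1g lie in this order on chromosome 1 within 275748 bases, with gaps of 42373 bases between Fcgr2b and Fcgr4, 21413 between Fcgr4 and Fcgr3, and 164637 between Fcgr3 and Fcer1g. Within 250 kb of these genes lay 35 other genes, 21 of them tested, of which 1 was higher and 0 lower by edgeR, and their median log2 fold change was -0.01. The one called was F11r, a junctional adhesion gene, at 0.90 ± 0.17 with an edgeR adjusted p of 0.0108. The next by p was Klhdc9 at -0.48 with an adjusted p of 0.0802. Of all tested genes 2.65% were called higher, so 1 of 21 neighbours does not set this region apart. The 4 receptor genes were all called higher, but Fcgr4 passed the filter through its GFAP-IL6 libraries only.

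**Figure D5:**
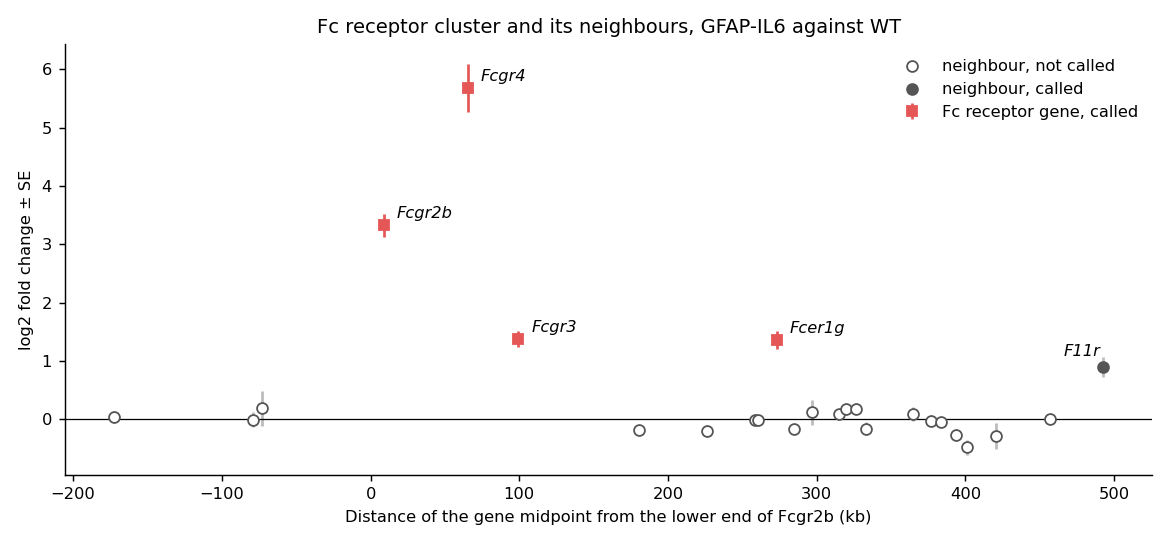
Log2 fold change of GFAP-IL6 over WT (y axis, edgeR, bars are the SE) against the distance of each gene's midpoint from the lower end of Fcgr2b in kilobases (x axis), for 4 Fc receptor genes and their 21 tested neighbours. The receptor genes stand at 1.36 or above, and the neighbours run from -0.48 to 0.90, with F11r the only neighbour called.

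The promoters of the members, of which 6 were called higher, were searched for motifs of 2 factors, in the 250 bases before each start in RefSeq for GRCm38.p6 and on both strands. All 7 members had an entry. TTCNNNGAA, the palindrome bound by STAT factors, which IL6 activates, was found in 1 of 7 members, Fcgr1, against 7.02% of 32851 promoters. GAGGAAG, a core bound by the myeloid factor PU.1, was found in 4 of 7 members, Fcgr1, Fcgr3, Fcgr4 and Fcrls, against 10.6% of promoters. Matches of the 2 motifs did not overlap. The stretches just before the start of the 3 activating alpha chain genes are shown with matches in capitals. Whether either motif bears on the levels of these genes was not tested. They lie at chr3:96293970-96294089 (minus strand), chr1:171018866-171018925 (plus strand) and chr1:171059404-171059463 (minus strand).

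Fcgr1 promoter: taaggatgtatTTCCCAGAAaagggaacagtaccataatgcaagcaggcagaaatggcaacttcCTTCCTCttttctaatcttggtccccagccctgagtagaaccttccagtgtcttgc

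Fcgr4 promoter: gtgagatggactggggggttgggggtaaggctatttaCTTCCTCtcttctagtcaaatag

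Fcgr3 promoter: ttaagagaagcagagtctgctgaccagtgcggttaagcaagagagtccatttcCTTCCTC

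The STAT motif of Fcgr1 began 109 bases before the start and its PU.1 core 56 bases before. The cores of Fcgr4 and Fcgr3 began 23 and 7 bases before the starts used here. For Fcgr3 this start, 171059403, lies inside the gene span given above. A further RefSeq entry of Fcgr3, not shown, held the core 16 bases before its start. In Fcgr2b and Fcer1g neither set of letters was found in this window. A match describes the letters only.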

How the data were processed

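TruSeq mRNA libraries from frontal cortex of 3 GFAP-IL6 and 3 WT mice were analysed. The title of each sample gave its group and number. The authors deposited a table of raw counts per gene, with a gene length in bases. Per the study's methods, reads were aligned to mm10 with STAR (version 2.4 in the submitters' processing notes) and those with a unique alignment were counted over GENCODE vM6 genes by featureCounts. The processing notes name a human build, but gene identifiers and positions are of mouse. Whether strand was used in counting is not given in the sources used here.

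Counts were tested with edgeR 4.0.16 (R 4.3.3; quasi-likelihood, TMM, filterByExpr, Benjamini-Hochberg, group only) and called at an adjusted p under 0.05. Alternatives were RLE and upper-quartile scaling, DESeq2 1.42.0, which the authors used, limma-voom (limma 3.58.1), no filter, leaving out each library and a replicate block. The fits were tested on simulated counts. Ratios within libraries were compared by exact two-sided permutation tests, and binomial intervals were computed with SciPy 1.17.1. TPM used the deposited lengths. Fold changes against a group with at most 3 counts in each library are bounds against 3 counts. Floors and binomial intervals cover counting error only, as reads carried no molecular identifiers. No pair of libraries agreed within sampling noise (chi-square per degree of freedom from 2.23 to 20.1).

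The members, gene lists and tests were chosen with earlier results of these data known. From each pathway list up to 4 tested genes with the smallest adjusted p were named, and genes at 0 counts could be named. Of gene identifiers, 32593 of 33000 matched GENCODE M21 (GRCm38), from which positions and transcripts were read with Biopython 1.88. An ITAM was a pair of tyrosines, each followed at the third place by leucine or isoleucine, with a set range of residues between these parts. An ITIM was a tyrosine with isoleucine, leucine, valine or serine at the second place before it and leucine or valine at the third place after it.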

Additional observations from a re-analysis of the deposited data

How the results depend on the processing

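Fcgr1, Fcgr2b, Fcgr3, Fcgr4 and Fcer1g were called higher under all 12 alternatives of scaling, tool, filter, left-out library and block. Leaving out a library gave log2 fold changes from 1.61 to 1.88 for Fcgr1, 3.19 to 3.51 for Fcgr2b, 1.21 to 1.49 for Fcgr3 and 1.25 to 1.52 for Fcer1g. Fcrls lost its call without GFAP-IL6 replicate 3 (log2 fold change 0.70, edgeR adjusted p 0.0615), where 5 members were called, and ranged from 0.67 to 0.94 over the left-out libraries. Fcgrt ranged from -0.22 to 0.069 over the left-out libraries and changed sign to 0.069 without WT replicate 2 and to 0.038 without GFAP-IL6 replicate 2, with edgeR adjusted p-values of 0.864 and 0.927. Pathway genes called higher numbered 17, with 12 to 20 over the left-out libraries and 23 without the filter. The log2 ratios of Fcgr2b to Fcgr1, Fcgr3, Fcgr4 and Fcer1g kept their direction, from 1.27 to 1.79, 1.81 to 2.02, -2.82 to -1.70 and 1.76 to 2.14 over the left-out libraries. Same-numbered libraries of the groups had correlated deviations of 0.112, 0.0172 and 0.0351 across genes. Differently numbered libraries had values from -0.0861 to 0.052. The largest value was of a same-numbered pair, so these values do not settle whether the numbers mark pairs. The study states no pairing for these libraries, and the numbers were not taken as pairs. A fit with the replicate number as a block called 6 members and 750 genes, against 439 without the block and 1154 without the filter. Without a GFAP-IL6 library, between 187 and 304 genes were called, and without a WT library between 346 and 1061. With 3 libraries a group, permutation tests could not fall below 0.1, and genes at a few counts, such as Fcgr4 in WT, give bounds only.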

Other observations

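The genes with levels most like those of Fcgr2b over the 6 libraries, by Pearson's r of log2(CPM + 0.5), were Scgb3a1 (r = 0.998), Irf8 (r = 0.997) and Il1r1 (r = 0.9965). For Fcer1g they were Ly86 (r = 0.998), Lcp1 (r = 0.996) and Stac3 (r = 0.995). These coefficients are given as a description over the 6 libraries, which share their scaling and fall into 2 groups. Irf8, a transcription factor of myeloid cells, stood at 5.05, 4.53 and 4.14 CPM in WT and 10.2, 12.3 and 13.7 CPM in GFAP-IL6. Ly86, which encodes a partner of a Toll-like receptor relative, stood at 6.09, 10.2 and 7.84 CPM in WT and 33.8, 26.4 and 32.0 CPM in GFAP-IL6. Scgb3a1, which encodes a secretoglobin, had at most 0.348 CPM in WT and between 6.18 and 10.7 CPM in GFAP-IL6.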
